A study of Mus musculus with 34 samples.

Results

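The comparison described here set mouse mammary adenocarcinoma cells carrying the Y551A-Dim form of the glucocorticoid receptor (GR) against cells carrying the Y551A form, both without hormone. The members were the EtOH libraries of both lines in the gene count tables, 3 libraries labelled Y551A-Dim and 3 labelled Y551A, which is 6 of the 34 libraries of the series. All lines derive from the 3617 cell line after knockout of its own GR, and each was given a GFP-tagged mouse GR that it expresses stably, so the labels tell the groups apart by receptor form alone. Before treatment the cells stood for at least 24 h in medium with 10% charcoal/dextran-treated serum, which holds little steroid, and 5 µg/ml tetracycline, and they then received ethanol vehicle (EtOH) for 2 h. Libraries of the same lines given 100 nM dexamethasone (Dex), a synthetic glucocorticoid, for 2 h, and EtOH libraries of a line with wild-type (WT) receptor, serve below as further reference. The labels do not spell out Dim. They give 1 line per receptor form, so an effect of the receptor and any other difference between the 2 lines cannot be told apart, and they say that conditions were in triplicate but not whether the libraries came from separate cultures. Without separate cultures the spread behind every p-value would be technical. A pair of library kits was used in batches that the labels do not assign to libraries.

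GR is a nuclear receptor that rests in the cytoplasm with heat shock proteins and, once a glucocorticoid binds, enters the nucleus, binds DNA and raises or lowers transcription of its target genes. In the GR field the name Dim is used for a substitution in the loop of the DNA-binding domain through which receptor molecules pair on DNA, whereas the tyrosine replaced in Y551A lies in the ligand-binding domain. Without hormone the receptor has little activity of its own, so a comparison in EtOH shows how far the lines stood apart before any response to Dex.

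The 6 libraries held 51188943 to 58611115 counted reads and between 20737 and 21674 gene names with a count. With levels as CPM, counts scaled to the normalized total of the library, Nr3c1, the GR gene, stood at 342, 352 and 341 CPM in Y551A replicates 1 to 3 and at 307, 314 and 309 CPM in Y551A-Dim. The groups did not overlap, and the log2 fold change was small (-0.15 ± 0.03 (SE), edgeR adjusted p = 0.000306). The deposited counts give transcript, not protein, and do not separate the GFP-tagged copy from other Nr3c1 transcript. For the marker lists that follow, CPM were scaled to the library total without normalization. Their sums include all members, also those too scarce to be tested. Of 28 luminal mammary markers 11 had no count in any of the 6 libraries, among them Epcam, Cldn3, Cldn4, Cldn7 and Esrp1, and the summed level of the list was 244 to 255 CPM in Y551A and 257 to 262 CPM in Y551A-Dim. Of the luminal sum most was Cd24a, at a mean of 221 and 226 CPM. The 24 mesenchymal and fibroblast markers summed to 9180 to 9374 CPM and to 8773 to 9435 CPM, mostly Vim (means of 5172 and 4887 CPM) and Col1a2 (2421 and 2560 CPM), while Thy1, Fap and Tcf21 had no count and Col1a1 was at 1.64 and 2.23 CPM. Summed basal markers (18 genes) were 45.9 to 47.7 CPM against 32.8 to 35.4 CPM, a shift carried by Krt14 (means of 19.2 and 7.97 CPM) where Mylk was level (22.7 and 22.4 CPM). Immune markers (16 genes) summed to 19.3 to 20.5 against 15.5 to 17.1 CPM with Cd3e, Adgre1, Itgam and Tyrobp at 0, and here Cd14 carried the shift (12.1 and 8.0 CPM) while Lyz2 went the other way (4.94 and 5.57 CPM). The sums therefore do not show either class of markers moving as a whole. Endothelial markers (12 genes) summed to 10.5 to 10.9 against 9.73 to 10.4 CPM, and muscle and neural markers (18 genes) 40.4 to 45.1 against 34.9 to 36.7 CPM. Cells labelled as mammary adenocarcinoma thus had many defining luminal transcripts at 0, and some of the mesenchymal ones too, in both lines.

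Counts were compared gene by gene with edgeR's quasi-likelihood test, and a gene was called at a Benjamini-Hochberg adjusted p below 0.05. Log2 fold changes are Y551A-Dim minus Y551A unless stated otherwise, so that positive values are higher in Y551A-Dim. Of 16140 genes tested, 4677 were called (29%). They were split almost evenly, with 2387 higher in Y551A-Dim (14.8%) and 2290 lower (14.2%). Most differences were small, with a median absolute log2 fold change of 0.26 among the called genes. Called genes at least 1.5-fold apart numbered 549 (3.4%), of which 241 were higher (1.49%) and 308 lower (1.91%), and at least 2-fold apart were 68 and 113. Single libraries of the 2 lines did not overlap in 528 of the 549, against 41.3% of all genes tested.

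The gene lists with the largest share of members higher in Y551A-Dim were those of mitosis, DNA replication, recombination, core histones and the cell cycle, followed by the integrated stress response and lipid synthesis. Lists with many members lower in Y551A-Dim were immediate early transcription factors, growth factor ligands and their feedback inhibitors, matrix and collagen genes, and BMP and Id genes. There were 37 lists carried over from an earlier look at these data. A further 4 (replication, recombination, mitotic, and E2F and G1/S genes) were added after the values had been seen. So were the histone and keratin lists and those of genes that respond to Dex in WT. The counts of all these lists therefore describe these libraries and are no independent evidence of a direction. In bulk RNA fewer cells in a phase or of a type and less RNA per cell cannot be told apart.

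**Figure D1:**
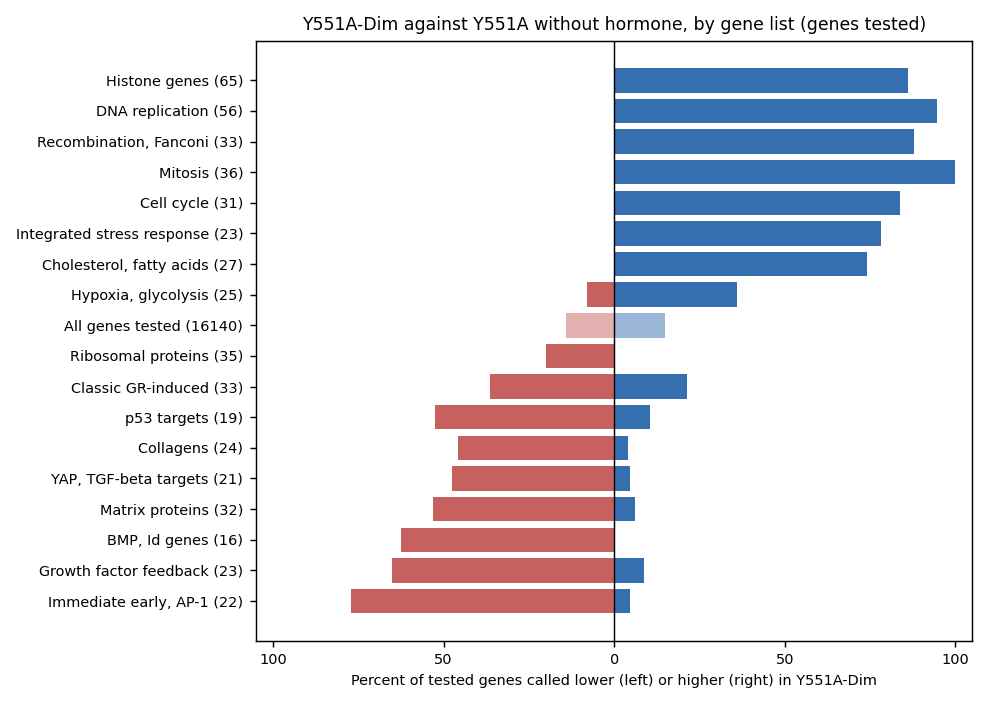
Percent of the tested genes of each list called lower (red, left) or higher (blue, right) in Y551A-Dim than in Y551A without hormone, with the number of genes tested in parentheses and all 16140 tested genes as the pale bar. All 36 mitotic genes and 53 of 56 replication genes were called higher, and 17 of 22 immediate early genes lower, where all genes gave 14.8% higher and 14.2% lower.

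DNA replication starts when origins are licensed by loading of the MCM helicase and are then fired and copied in S phase, when histone genes are also transcribed. Many of these genes carry binding sites for E2F factors close to their start sites. Because these genes moved together, the promoters of 3 of the most changed, Cdc6, E2f2 and Dtl, are printed, each of which holds such letters. Each runs 5′ to 3′ on the gene's strand from 250 bases before to 50 after the start site, as given by RefSeq on GRCm38.p6, with every match of TTTCCCGC or TTTGGCGC, on either strand, in capitals. They lie at chr11:98907901-98908200 (plus strand), chr4:136172024-136172323 (plus strand) and chr1:191575495-191575794 (minus strand).
Cdc6: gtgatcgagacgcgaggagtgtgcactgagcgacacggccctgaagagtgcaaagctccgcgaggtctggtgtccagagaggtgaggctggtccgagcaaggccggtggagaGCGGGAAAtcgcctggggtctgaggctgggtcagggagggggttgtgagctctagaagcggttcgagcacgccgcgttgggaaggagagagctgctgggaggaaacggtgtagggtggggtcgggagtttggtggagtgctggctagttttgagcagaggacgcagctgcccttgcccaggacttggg
E2f2: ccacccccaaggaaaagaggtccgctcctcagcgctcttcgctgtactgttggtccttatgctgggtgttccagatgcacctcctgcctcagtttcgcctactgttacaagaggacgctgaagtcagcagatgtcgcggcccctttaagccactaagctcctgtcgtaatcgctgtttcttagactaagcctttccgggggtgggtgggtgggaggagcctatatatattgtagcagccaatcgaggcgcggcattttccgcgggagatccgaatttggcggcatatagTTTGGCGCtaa
Dtl: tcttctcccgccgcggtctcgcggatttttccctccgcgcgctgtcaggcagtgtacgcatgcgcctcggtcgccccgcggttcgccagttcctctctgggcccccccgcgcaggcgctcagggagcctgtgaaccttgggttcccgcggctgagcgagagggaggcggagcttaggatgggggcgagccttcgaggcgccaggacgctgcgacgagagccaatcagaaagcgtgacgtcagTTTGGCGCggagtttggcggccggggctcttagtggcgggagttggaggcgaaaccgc
The match begins 138 bases before the start site in Cdc6, where it reads on the other strand, and 8 bases before it in Dtl. In E2f2 it begins 39 bases after. One or both of these letter strings stood in 14 of the 46 replication genes that matched a window (30.4%) and in 323 of all 10329 tested genes with one (3.13%). The windows of Mcm10 and Ung held neither string. Mitotic genes held none among 30 windows, but CCAAT, a motif common in promoters of mitotic and histone genes, stood in 23 of the 30 (76.7%) against 39.8% of all windows. These shares describe letters, not bound factors.

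Cdc6, which loads the MCM helicase onto origins (chr11:98907801-98923940), stood at 40.5, 42.9 and 40.3 CPM in Y551A and at 73.6, 81.7 and 72.1 CPM in Y551A-Dim. It was 1.84-fold higher in Y551A-Dim (log2 0.88 ± 0.06 (SE), edgeR adjusted p = 4.32e-11), and its WT level was 90.5, 88.9 and 83.7 CPM. Dtl, the substrate adaptor of a ubiquitin ligase that limits re-replication (chr1:191537356-191575544), stood at 114, 121 and 110.1 CPM against 195, 208 and 201 CPM. Every Y551A-Dim library lay above every Y551A library of both genes, with log2 0.81 ± 0.05 (SE), edgeR adjusted p = 1.64e-12, for Dtl. Mcm10, a replisome factor (chr2:4989714-5012791), gave 36, 34.9 and 37.2 CPM against 64.9, 63.9 and 61.5 CPM (log2 0.82 ± 0.05 (SE), edgeR adjusted p = 1.35e-11). E2f2, an E2F factor that activates S-phase genes, gave 7.84, 8.22 and 9.34 CPM against 15.9, 15.4 and 15.1 CPM (log2 0.87 ± 0.08 (SE), edgeR adjusted p = 2.72e-09). For all 4 genes Y551A lay below WT as well as below Y551A-Dim, as the plot of levels by library shows.

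**Figure D2:**
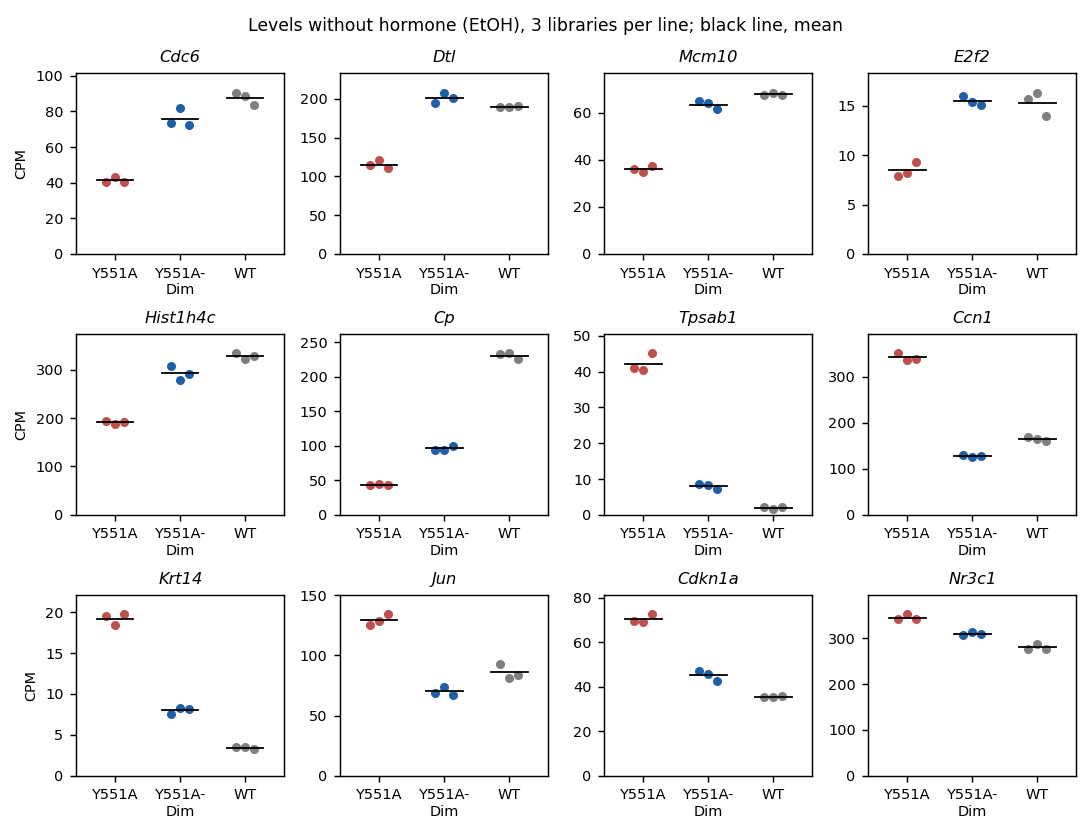
CPM of 12 genes in each EtOH library of Y551A (red), Y551A-Dim (blue) and WT (grey), 3 libraries per line, with the group mean as a black line and each axis starting at 0. The Y551A points of Cdc6, Dtl, Mcm10 and E2f2 lie below all points of Y551A-Dim and WT, and those of Tpsab1, Ccn1, Krt14, Jun and Cdkn1a above all of them.

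The list of 56 replication genes (licensing, forks and nucleotide supply) had 53 members called higher in Y551A-Dim and none lower, the exceptions being Orc3, Orc4 and Orc5 of the origin recognition complex, with a median log2 fold change of 0.50 where all genes tested had 0.01. At least 1.5-fold higher were 16 of them. Among other members, Mcm3 (log2 0.67 ± 0.05 (SE), edgeR adjusted p = 1.14e-10) and Mcm5 (log2 0.65 ± 0.05 (SE), edgeR adjusted p = 6.78e-11) are helicase subunits. Pcna, the sliding clamp of DNA polymerase, was higher too (log2 0.54 ± 0.04 (SE), edgeR adjusted p = 3.97e-10), and Rrm2, a subunit of the enzyme that makes deoxynucleotides, differed by log2 0.58 ± 0.05 (SE), edgeR adjusted p = 3e-10. Ung, which removes uracil from DNA, stood at 14.3, 14.4 and 14.3 CPM against 27.2, 28 and 25 CPM (log2 0.90 ± 0.06 (SE), edgeR adjusted p = 4.17e-11). Summed over the list, the level was 4785, 4792 and 4834 CPM in Y551A and 6693, 6954 and 6658 CPM in Y551A-Dim, with 7118, 7133 and 6988 CPM in WT.

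Genes of homologous recombination and the Fanconi pathway, which repair breaks and crosslinks at forks, followed the same direction, with 29 of 33 called higher, none lower and a median of 0.41. Exo1, a nuclease that resects DNA ends, had log2 0.81 ± 0.06 (SE), edgeR adjusted p = 3.39e-11, and Recql4, a helicase of the same group, log2 0.83 ± 0.08 (SE), edgeR adjusted p = 3.68e-09. Mitotic genes were all called higher, 36 of 36, with a median of 0.29 and none reaching 1.5-fold. Among them were Aurka (log2 0.41 ± 0.05 (SE), edgeR adjusted p = 4.03e-07) and Plk1 (log2 0.35 ± 0.05 (SE), edgeR adjusted p = 6.35e-06), kinases of the spindle, and Ccnb1, the mitotic cyclin (log2 0.27 ± 0.05 (SE), edgeR adjusted p = 9.14e-05). Leaving out any 1 of the 6 libraries left 33 to 35 of the 36 called. The carried-over cell cycle list, which shares members with these, had 26 of 31 higher and none lower. Ccne2, the cyclin of the G1/S step, stood at 73.3, 79.3 and 74.6 CPM against 119, 123 and 135 CPM (log2 0.73 ± 0.05 (SE), edgeR adjusted p = 9.97e-11), and Mki67, a proliferation marker, at 894, 904 and 914 CPM against 1139, 1149 and 1095 CPM (log2 0.32 ± 0.05 (SE), edgeR adjusted p = 5.11e-05).

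Regulators upstream of S phase did not all follow. In the list of E2F factors and G1/S regulators 19 of 33 were higher and 4 lower (Mxd4, Cdkn1a, Myc and Rbl2). E2f1 differed by log2 0.46 ± 0.06 (SE), edgeR adjusted p = 3.18e-06. Ccnd1, cyclin D1 of early G1, overlapped between the lines, at 1759, 1754 and 1812 CPM against 1824, 1917 and 1769 CPM (log2 0.05 ± 0.04 (SE), edgeR adjusted p = 0.357). Inhibitors of growth were among the genes that went the other way. Mxd4, a MAX partner that opposes MYC (chr5:34173883-34187720), stood at 75, 73.1 and 76.9 CPM in Y551A and 31.8, 31.1 and 31.5 CPM in Y551A-Dim, a 2.38-fold lower level (log2 -1.25 ± 0.08 (SE), edgeR adjusted p = 5.19e-12). Cdkn1a, the p21 inhibitor of cyclin-dependent kinases (chr17:29090976-29100727), fell from 69.5, 68.9 and 72.6 CPM to 47.3, 45.7 and 42.5 CPM between the lines (log2 -0.64 ± 0.06 (SE), edgeR adjusted p = 3.73e-09). Both lines lay above WT for Cdkn1a, at 35.5, 35.5 and 35.7 CPM. Of 19 p53 targets tested, 10 were lower, Cdkn1a among them, 2 were higher (Gadd45a and Bax) and the median was -0.17. Btg2, an antiproliferative p53 target, was lower by more (log2 -0.91 ± 0.07 (SE), edgeR adjusted p = 1.43e-10) and Ccng1, a cyclin induced by p53, by less (log2 -0.28 ± 0.04 (SE), edgeR adjusted p = 4.12e-06), while Gadd45a, a DNA damage gene, was higher (log2 0.32 ± 0.07 (SE), edgeR adjusted p = 0.000342).

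Replication-dependent histone genes showed the highest list median, 0.59, with 56 of 65 tested members called higher, none lower and 34 at least 1.5-fold. Their transcripts mostly lack a poly(A) tail, and the libraries here were made from total RNA after removal of ribosomal RNA. Hist1h4c, one of the copies that encode histone H4, carries CCAAT on its own strand at 146 and 126 bases before its start site, in capitals in its promoter at chr13:23698409-23698708 (minus strand, RefSeq, GRCm38.p6).
Hist1h4c: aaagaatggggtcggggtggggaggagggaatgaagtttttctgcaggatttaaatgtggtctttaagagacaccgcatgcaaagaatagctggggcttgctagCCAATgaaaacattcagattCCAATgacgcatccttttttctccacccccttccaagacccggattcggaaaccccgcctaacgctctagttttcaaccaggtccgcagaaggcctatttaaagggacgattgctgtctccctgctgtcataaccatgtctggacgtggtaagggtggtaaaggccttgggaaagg
CCAAT stood in 47 of 56 histone windows (83.9%), read on either strand, and 1 of the 56 held an E2F string. The window of Hist1h4j, another H4 copy, held no CCAAT on either strand. Hist1h4c stood at 195, 188 and 193 CPM in Y551A and 308, 279 and 292 CPM in Y551A-Dim (log2 0.61 ± 0.05 (SE), edgeR adjusted p = 1.1e-09), with WT at 334, 323 and 327 CPM. Hist1h4j gave 144, 147 and 150.5 CPM against 235, 237 and 224 CPM (log2 0.66 ± 0.06 (SE), edgeR adjusted p = 1.47e-09). Hist1h2bq had the highest fold among called genes without overlap and past the abundance limit for naming (mean log2 CPM of 1 or more). It stood at 1.11, 1.43 and 1.5 CPM against 3.55, 3.44 and 3.03 CPM (2.47-fold, log2 1.31 ± 0.20 (SE), edgeR adjusted p = 1.34e-05). Hist1h2br was higher too (log2 1.09 ± 0.13 (SE), edgeR adjusted p = 4.45e-07). Histone copies are close to identical and reads could go to the wrong member, so single copies are uncertain. The level summed over the list was 7246, 6837 and 7176 CPM in Y551A, 10611, 11146 and 10223 CPM in Y551A-Dim and 12597, 11994 and 11952 CPM in WT. In this sum Y551A-Dim stood 1.5 times above Y551A and below WT.

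Both histone clusters of chromosome 13 also stood out along the genome. Among runs of 20 neighbouring tested genes, the highest median log2 fold changes were 0.66 at chr13:21716667-21925016, with 14 genes called higher, and 0.58 at chr13:23533906-23698454, with 18. The next, 0.44 at chr1:88134809-90283912, held 6 genes called higher, the most clearly Hjurp, the chaperone of centromeric histone (log2 0.36 ± 0.04 (SE), edgeR adjusted p = 2.2e-07). The lowest runs had medians of -0.53 at chr3:93555080-94758116, -0.49 at chr12:87480108-95785215 and -0.40 at chr7:8282127-12803635. Each of these 3 held 4 genes called lower and 1 higher, the other 15 not being called.

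Outside the cell cycle, the highest folds among called genes without overlap and past the abundance limit of the naming rule included Cp, Il33, Adgrl2 and Scara5. Cp, which encodes the copper-carrying ferroxidase ceruloplasmin (chr3:19957054-20009145), stood at 43.7, 44 and 42.9 CPM in Y551A and 94.2, 94.6 and 99.8 CPM in Y551A-Dim. It was 2.21-fold higher (log2 1.14 ± 0.05 (SE), edgeR adjusted p = 1.32e-14), yet both lines lay far below WT, at 232, 234 and 226 CPM. Scara5, a ferritin receptor, had the same order of lines, with 11.2, 12 and 11.3 CPM against 21.1, 21.7 and 19.9 CPM and 46.3, 47.6 and 46.3 CPM in WT (log2 0.86 ± 0.11 (SE), edgeR adjusted p = 1.3e-06). Il33, an alarmin cytokine (chr19:29925114-29960718), gave 5.36, 4.81 and 4.94 CPM against 9.68, 10.0 and 11.3 CPM (log2 1.04 ± 0.09 (SE), edgeR adjusted p = 3.16e-09), and Adgrl2, an adhesion receptor, 3.83, 3.77 and 3.98 CPM against 6.9, 7.63 and 7.88 CPM (log2 0.95 ± 0.09 (SE), edgeR adjusted p = 1.63e-08). Slfn8, of the Schlafen family, was the last of the 14 highest genes named by rule (log2 0.81 ± 0.20 (SE), edgeR adjusted p = 0.0028). Below that limit, S100a7a, of the S100 calcium-binding proteins, stood at 0.469, 0.409 and 0.365 CPM against 1.35, 1.6 and 2 CPM and was 3.96-fold higher (log2 1.98 ± 0.22 (SE), edgeR adjusted p = 8.44e-08).

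The integrated stress response, in which ATF4 raises amino acid synthesis and transport, was higher in Y551A-Dim in 18 of 23 genes and lower in none, with a median of 0.21. Slc7a11, the cystine transporter, had the largest difference, 13.5, 13.1 and 13.1 CPM against 22.1, 24.3 and 20.1 CPM (log2 0.74 ± 0.09 (SE), edgeR adjusted p = 8.15e-07). Trib3, a pseudokinase induced by ATF4, gave 41.9, 40.6 and 45.2 CPM against 67.1, 66 and 60.4 CPM (log2 0.60 ± 0.05 (SE), edgeR adjusted p = 1.18e-09). Ddit3, a stress transcription factor, had log2 0.52 ± 0.07 (SE), edgeR adjusted p = 1.89e-06, and the factor Atf4 itself 532, 537 and 531 CPM against 666, 695 and 681 CPM (log2 0.35 ± 0.04 (SE), edgeR adjusted p = 4.87e-08). Genes of serine metabolism rose with them, Phgdh by log2 0.49 ± 0.05 (SE), edgeR adjusted p = 3.72e-09, Psat1 by log2 0.39 ± 0.04 (SE), edgeR adjusted p = 5.9e-09 and Shmt2 by log2 0.49 ± 0.05 (SE), edgeR adjusted p = 5.47e-09. Here neither line reached WT, whose 3 libraries summed over the list to 6118, 6095 and 5979 CPM, against 4019, 3963 and 4038 CPM in Y551A and 4823, 4961 and 4723 CPM in Y551A-Dim.

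Cholesterol and fatty acid synthesis was higher in 20 of 27 genes and lower in none, by small amounts (median 0.19, none at 1.5-fold). Fasn, fatty acid synthase, stood at 753, 726 and 813 CPM against 1055, 1135 and 969 CPM (log2 0.46 ± 0.07 (SE), edgeR adjusted p = 5.16e-06). Fdps, of the isoprenoid branch, had log2 0.45 ± 0.06 (SE), edgeR adjusted p = 2.71e-06, Hmgcs1, at the entry of the pathway, log2 0.28 ± 0.05 (SE), edgeR adjusted p = 6.61e-05, and Acaca, which makes malonyl-CoA, log2 0.34 ± 0.05 (SE), edgeR adjusted p = 5.32e-06. Sqle, an oxygenase of the sterol branch, was not called, at 304, 315 and 309 CPM against 319, 334 and 313 CPM (log2 0.06 ± 0.04 (SE), edgeR adjusted p = 0.373). Hypoxia and glycolysis genes were mixed, with 9 of 25 higher, 2 lower and a median of 0.18. Ldha, which makes lactate, differed by log2 0.28 ± 0.04 (SE), edgeR adjusted p = 1.37e-06, and Adm, a hypoxia-induced peptide, by log2 0.41 ± 0.09 (SE), edgeR adjusted p = 0.000773.

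Immediate early genes encode transcription factors that serum and growth factors induce within minutes, and most stood lower in Y551A-Dim. Of 22 tested, 17 were called lower, 1 higher, and 8 of the lower ones reached 1.5-fold (median -0.46). Jun, a subunit of AP-1 (chr4:95049034-95052222), stood at 125, 129 and 134 CPM in Y551A and 69.1, 74.1 and 67.4 CPM in Y551A-Dim, a 1.84-fold difference (log2 -0.88 ± 0.06 (SE), edgeR adjusted p = 4.32e-11). Jund, its relative, gave 109, 106 and 114 CPM against 66.9, 70.8 and 63.8 CPM (log2 -0.71 ± 0.06 (SE), edgeR adjusted p = 2.98e-10). Fos was scarce, at 0.977, 1.01 and 0.999 CPM against 0.581, 0.508 and 0.404 CPM (log2 -0.99 ± 0.27 (SE), edgeR adjusted p = 0.00541). Egr2, a zinc finger factor, gave 4.63, 3.75 and 3.31 CPM against 1.71, 1.61 and 1.74 CPM (log2 -1.20 ± 0.16 (SE), edgeR adjusted p = 1.71e-06), Klf6, a Krüppel-like factor, log2 -0.60 ± 0.04 (SE), edgeR adjusted p = 4.86e-12, and Ier2 log2 -0.48 ± 0.08 (SE), edgeR adjusted p = 4.92e-05. Myc differed less (log2 -0.22 ± 0.06 (SE), edgeR adjusted p = 0.00267), and Klf4, the 1 member that was higher, stood at 14.9, 14.7 and 15.3 CPM against 18.3, 18.8 and 18.8 CPM (log2 0.32 ± 0.08 (SE), edgeR adjusted p = 0.00422). Summed over the list, the level was 1124, 1116 and 1163 CPM in Y551A, 813, 852 and 802 CPM in Y551A-Dim and 906, 869 and 877 CPM in WT, so that Y551A lay above and Y551A-Dim below WT.

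Growth factor ligands and the inhibitors that growth factor signalling induces were lower in 15 of 23 genes and higher in 2, Nrg1 and Spry1 (median -0.43). Areg, amphiregulin, an EGF receptor ligand, stood at 11.2, 9.6 and 10.6 CPM against 4.59, 4.75 and 5.49 CPM (log2 -1.09 ± 0.11 (SE), edgeR adjusted p = 1.91e-08), and Ereg, epiregulin, at 27.2, 25.2 and 24.9 CPM against 14.4, 14.7 and 15.9 CPM (log2 -0.78 ± 0.06 (SE), edgeR adjusted p = 8.84e-11). For Areg the WT libraries overlapped those of Y551A-Dim, at 4.72, 4.3 and 4.39 CPM. Nrg1, neuregulin, a ligand of other receptors of the EGF family, differed the other way (log2 0.47 ± 0.05 (SE), edgeR adjusted p = 5.42e-08). Dusp4, a phosphatase of MAP kinases, had log2 -0.63 ± 0.06 (SE), edgeR adjusted p = 3.93e-09, Errfi1, an inhibitor of the EGF receptor, log2 -0.51 ± 0.05 (SE), edgeR adjusted p = 4.15e-09, and Spry2, a brake on receptor tyrosine kinases, log2 -0.43 ± 0.07 (SE), edgeR adjusted p = 2.79e-05. Of 17 NF-kB targets 6 were lower and 4 higher, and leaving out any 1 of the 6 libraries left 1 to 3 called higher. Tnfaip3, which shuts off NF-kB signalling, had log2 -0.66 ± 0.07 (SE), edgeR adjusted p = 3.17e-08, Ptgs2, which makes prostaglandins, log2 -0.54 ± 0.05 (SE), edgeR adjusted p = 3.73e-09, and Cxcl1 log2 -0.46 ± 0.13 (SE), edgeR adjusted p = 0.00651, while the chemokine Ccl2 was higher (log2 0.27 ± 0.07 (SE), edgeR adjusted p = 0.00472), a call lost without Y551A-Dim replicate 3.

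Ccn1, a secreted matricellular protein and target of the YAP and TEAD factors (chr3:145646976-145649981), had the lowest adjusted p among the genes named. It stood at 351, 337 and 339 CPM in Y551A, 129.9, 126 and 128 CPM in Y551A-Dim and 169.7, 166 and 161 CPM in WT, so Y551A-Dim was 2.68-fold below Y551A (log2 -1.42 ± 0.04 (SE), edgeR adjusted p = 2.83e-19). Ankrd1, a muscle ankyrin repeat protein and likewise a YAP target (chr19:36111961-36120099), stood at 368, 346 and 352 CPM against 217, 208 and 214 CPM, with WT at 217, 208 and 202 CPM (log2 -0.74 ± 0.04 (SE), edgeR adjusted p = 1.1e-13). The promoters of both hold GGAATG, the core of the motif bound by TEAD factors, and are printed with it in capitals on either strand, at chr3:145649936-145650235 and chr19:36119795-36120094 (both minus strand, RefSeq, GRCm38.p6).
Ccn1: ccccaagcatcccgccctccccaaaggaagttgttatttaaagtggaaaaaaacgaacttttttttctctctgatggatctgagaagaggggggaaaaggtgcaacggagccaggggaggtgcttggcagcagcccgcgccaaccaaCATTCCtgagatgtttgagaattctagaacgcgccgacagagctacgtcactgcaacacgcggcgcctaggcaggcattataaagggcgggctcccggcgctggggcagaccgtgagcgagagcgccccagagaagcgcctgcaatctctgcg
Ankrd1: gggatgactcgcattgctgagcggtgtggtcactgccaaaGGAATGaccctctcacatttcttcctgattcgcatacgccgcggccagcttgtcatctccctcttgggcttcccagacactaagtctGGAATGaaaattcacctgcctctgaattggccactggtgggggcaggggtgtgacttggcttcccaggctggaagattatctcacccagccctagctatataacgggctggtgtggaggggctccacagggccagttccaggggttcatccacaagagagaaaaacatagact
The Ccn1 match begins 103 bases before the start site and reads on the other strand as CATTCC, and those of Ankrd1 begin 210 and 123 bases before. Of the 14 YAP and TGF-beta targets with a window 8 held the motif (57.1%), as did 1244 of all 10329 windows (12%). Genes called at least 1.5-fold lower in Y551A-Dim held it in 27 of 220 windows (12.3%), and those higher in 24 of 138 (17.4%). The motif was thus no more common among the lower genes than among all windows. Over the whole list of YAP and TGF-beta targets 10 of 21 were lower and 1 higher, with a median of -0.14. Inhba, an activin subunit, was lower as well (log2 -0.45 ± 0.05 (SE), edgeR adjusted p = 3.15e-07). Ccn2, the relative of Ccn1, was much scarcer and differed less, 7.56, 8.08 and 7.02 CPM against 5.84, 5.78 and 5.8 CPM (log2 -0.38 ± 0.07 (SE), edgeR adjusted p = 0.000228).

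BMP and Id genes were lower in 10 of 16 and higher in none (median -0.26). Id1, an inhibitor of differentiation induced by BMP, stood at 35.7, 34.1 and 35 CPM against 25.2, 25.9 and 24.1 CPM (log2 -0.48 ± 0.05 (SE), edgeR adjusted p = 8.82e-08), Id3 differed by log2 -0.31 ± 0.05 (SE), edgeR adjusted p = 8e-05, and Smad9, a BMP signal transducer, by log2 -0.54 ± 0.08 (SE), edgeR adjusted p = 1.06e-05. Collagens were lower in 11 of 24 and higher in 1 (median -0.17), and their summed level in Y551A-Dim was 0.834 of that in Y551A. The 3 chains of collagen VI fell together: Col6a1 (chr10:76708792-76726168) stood at 788, 753 and 819 CPM in Y551A, 469, 501 and 445 CPM in Y551A-Dim and 275, 268 and 272 CPM in WT (log2 -0.74 ± 0.05 (SE), edgeR adjusted p = 1.29e-11), Col6a2, its neighbour on chromosome 10, had log2 -0.72 ± 0.05 (SE), edgeR adjusted p = 1.09e-10, and Col6a3 log2 -0.52 ± 0.05 (SE), edgeR adjusted p = 5.47e-09. Col4a1 of the basement membrane had log2 -0.51 ± 0.06 (SE), edgeR adjusted p = 8.35e-08. For Col6a1 both lines lay above WT, Y551A-Dim between Y551A and WT. Col11a1, a chain of cartilage collagen, was the exception, at 0.606, 0.665 and 0.98 CPM against 1.28, 1.76 and 1.65 CPM (log2 1.06 ± 0.20 (SE), edgeR adjusted p = 0.000134). Other matrix genes were lower in 17 of 32 and higher in 2, Fbn1 and Spp1 (median -0.21), but the sum over them was 0.964 of that in Y551A. Thbs2, thrombospondin 2, gave 116, 122 and 119 CPM against 71.9, 77 and 68.5 CPM (log2 -0.72 ± 0.04 (SE), edgeR adjusted p = 5.27e-12), and Sparc, a collagen-binding protein, log2 -0.39 ± 0.03 (SE), edgeR adjusted p = 2.98e-09. Outside the matrix list, Igfbp7, a secreted IGF-binding protein, gave 26.7, 25.8 and 27 CPM against 11.7, 12.5 and 11.8 CPM (log2 -1.14 ± 0.07 (SE), edgeR adjusted p = 1.09e-11). Its list, growth factor receptors and ligands, had 7 of 22 lower and 4 higher. Fbn1, fibrillin 1 of microfibrils, stood at 0.625, 0.205 and 0.25 CPM against 0.717, 0.943 and 0.79 CPM (log2 1.19 ± 0.36 (SE), edgeR adjusted p = 0.0118), a call lost without Y551A replicate 2, Y551A replicate 3 or Y551A-Dim replicate 2. Among integrins, the matrix receptors, 6 of 14 were lower and 2 higher, Itgb2 and Itgb7 of leukocytes, with Itgb2 at 1.02, 1.13 and 0.75 CPM against 1.95, 2.5 and 2.85 CPM. Itga5, the fibronectin receptor subunit, had log2 -0.81 ± 0.05 (SE), edgeR adjusted p = 1.71e-11, Itga6, of laminin receptors, log2 -0.51 ± 0.04 (SE), edgeR adjusted p = 1.56e-10, and their partner Itgb1 log2 -0.26 ± 0.03 (SE), edgeR adjusted p = 5.55e-07.

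Among called genes without overlap and past the abundance limit of the naming rule, the lowest log2 fold change was that of a gene outside these lists. Tpsab1, a mast cell tryptase (chr17:25343245-25345562), stood at 41, 40.4 and 45.1 CPM in Y551A, 8.47, 8.43 and 7.33 CPM in Y551A-Dim and 2.13, 1.69 and 2.24 CPM in WT. Y551A-Dim was 5.21-fold below Y551A (log2 -2.38 ± 0.10 (SE), edgeR adjusted p = 3.43e-15), and both lay above WT. Mast cells were not on the marker lists, and 8 of the 16 immune markers had no count in the 6 libraries. Keratins of stratified and basal epithelium were lower, Krt14 (chr11:100203162-100207548) from 19.5, 18.4 and 19.7 CPM to 7.53, 8.34 and 8.1 CPM (log2 -1.27 ± 0.07 (SE), edgeR adjusted p = 1.87e-12) and Krt16 by log2 -1.32 ± 0.15 (SE), edgeR adjusted p = 1.78e-07. In all 3 of 11 tested keratins were lower and none higher. Trp63, the master factor of basal cells, was near 0 in both lines, at 0.274, 0.29 and 0.192 CPM and 0.324, 0.58 and 0.588 CPM (log2 0.97 ± 0.36 (SE), edgeR adjusted p = 0.0436), and its call was lost without any 1 of the 6 libraries other than Y551A-Dim replicate 1. Mcam, an adhesion molecule, gave 27.8, 25.9 and 27.3 CPM against 10.3, 12.8 and 10.6 CPM (log2 -1.26 ± 0.09 (SE), edgeR adjusted p = 8.84e-11), Acsbg1, an acyl-CoA synthetase, log2 -1.21 ± 0.09 (SE), edgeR adjusted p = 1.09e-10, Ldb3, a protein of muscle Z-discs, log2 -1.47 ± 0.11 (SE), edgeR adjusted p = 2.48e-10, and Add2, an adducin of the membrane skeleton, log2 -1.74 ± 0.17 (SE), edgeR adjusted p = 1.63e-08. Hba-a1, a globin with a near-identical copy (log2 -1.45 ± 0.21 (SE), edgeR adjusted p = 4.41e-06), and Prl2c3, of a prolactin-related family of similar copies (log2 -1.43 ± 0.21 (SE), edgeR adjusted p = 5.07e-06), are uncertain as to which copy the reads came from. Adamtsl2, a matrix protein (log2 -1.39 ± 0.19 (SE), edgeR adjusted p = 1.73e-06), and Tcp11l2 (log2 -1.30 ± 0.19 (SE), edgeR adjusted p = 4.67e-06) complete the rule's 14 lowest genes.

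A further set of genes was close to absent in 1 of the lines, with at most 30 counts summed over its 3 EtOH libraries. Those scarce in Y551A-Dim were Myo18b, Npy4r, Greb1, A4galt, Smoc2 and Apba1. Myo18b, an unconventional myosin of muscle, had 1.13, 0.989 and 0.846 CPM in Y551A and 0.12, 0.218 and 0.184 CPM in Y551A-Dim, and Npy4r, a receptor of the neuropeptide Y family, 0.743, 0.546 and 0.5 CPM and 0.137, 0.0725 and 0.0367 CPM. Those scarce in Y551A were Trib2, Tbx20, Cox6a2, Cmklr1, Mdk and Calcoco2. For Cox6a2 the lines overlapped, with 0.0391, 0.0341 and 0.115 CPM in Y551A and 0.444, 0.435 and 0.0735 CPM in Y551A-Dim. Tbx20, a T-box factor of heart development, had 0.117, 0.171 and 0.115 CPM and 0.376, 0.363 and 0.257 CPM but 2.5, 2.02 and 1.75 CPM in WT. No EtOH library of the 2 lines exceeded the 1.13 CPM of Myo18b for any of these 12 genes, so these are differences among low counts. The calls of Cmklr1, Mdk, Calcoco2 and Trib2 were each lost under some alternative.

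Of the genes at least 1.5-fold apart between the lines, more were called against WT in Y551A alone than in Y551A-Dim alone. Over all 16140 genes tested, Y551A was called higher than WT for 3057 and lower for 3798. For Y551A-Dim these counts were 1617 and 2140, so Y551A was called more often over all genes as well. Comparisons of each line with WT share the same 3 WT libraries, so their values are set side by side only. Of the 241 genes at least 1.5-fold higher in Y551A-Dim, WT lay beyond Y551A-Dim for 133, between the lines for 91 and beyond Y551A for 17. Against WT, only Y551A was called for 111 of them, only Y551A-Dim for 22, both for 67 and neither for 41. Of the 308 lower genes, WT lay beyond Y551A-Dim for 193, between the lines for 106 and beyond Y551A for 9, and only Y551A was called against WT for 142, only Y551A-Dim for 13, both for 114 and neither for 39. By group means, then, Y551A-Dim stood nearer to WT than Y551A on the same side for 133 and 193 genes, and farther from it on the same side for 17 and 9. The replication list had a median of -0.58 for Y551A against WT and of -0.09 for Y551A-Dim, the histone list -0.78 and -0.18, and the immediate early list 0.39 and -0.24.

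**Figure D3:**
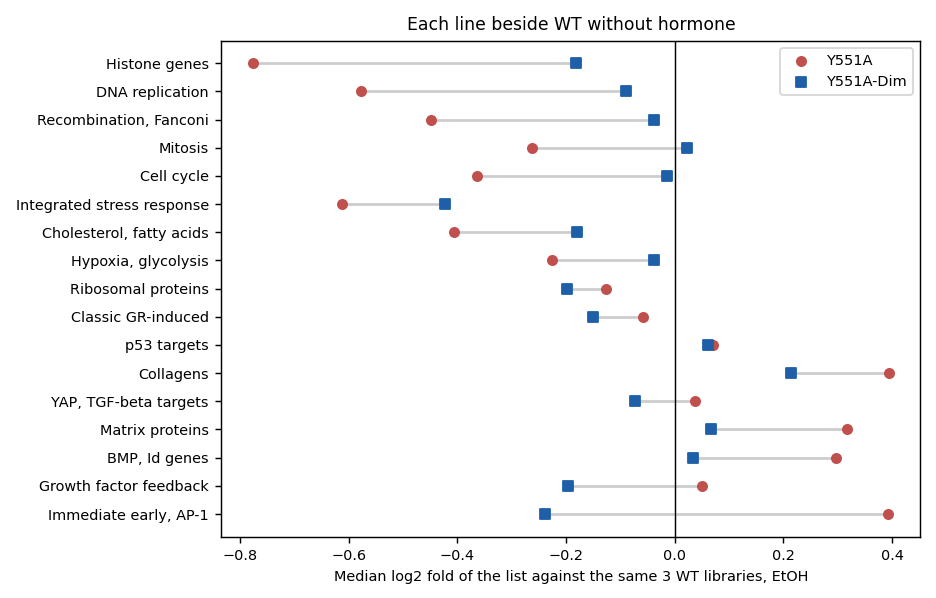
Median log2 fold change of each gene list against the same 3 WT EtOH libraries for Y551A (red circles) and Y551A-Dim (blue squares), without hormone, with 0 the WT level. Histone and replication genes have Y551A medians of -0.78 and -0.58 and Y551A-Dim medians of -0.18 and -0.09, and immediate early genes have medians on opposite sides of 0.

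Dex libraries of the 2 lines, which share no sample with the EtOH libraries, gave a second measurement of the line difference. With Dex 4108 of the 16140 genes were called (25.5%), 2065 higher in Y551A-Dim (12.8%) and 2043 lower (12.7%). Of the 2387 genes higher in EtOH 1527 were also called higher with Dex (64%, and 73.9% of the Dex calls), and of the 2290 lower ones 1524 were called lower (66.6%, and 74.6%). Only 16 genes were called in opposite directions. Among the 549 genes at least 1.5-fold apart in EtOH 505 had the same sign with Dex and 343 were called in the same direction, while 2 were called in the opposite one. Of the 56 replication genes 55 were called higher with Dex (median 0.39), of the 65 histone genes 58 (median 0.44), and of the 22 immediate early genes 12 lower (median -0.33). Cholesterol and fatty acid synthesis had 7 members called higher with Dex where EtOH had 20 (median 0.06), and hypoxia and glycolysis 16 where EtOH had 9 (median 0.33), but no member of either list was called for a difference between the treatments. Replicate 1 of Y551A-Dim with Dex stood apart from replicates 2 and 3 in several of these genes, for example Cdc6 at 62.2, 72.3 and 78.6 CPM and Scara5 at 37.5, 26.4 and 22.5 CPM. Without it 4358 genes were called with Dex.

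**Figure D4:**
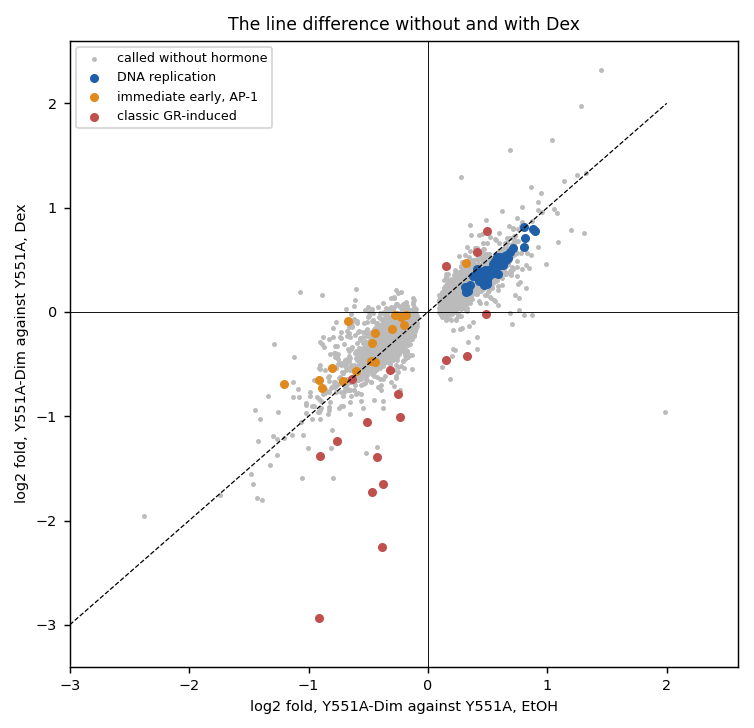
Log2 fold change of Y551A-Dim against Y551A with Dex (vertical) and with EtOH (horizontal) for 4384 genes called in EtOH whose libraries did not overlap and whose mean CPM over both lines was at least 1, the dashed line marking equal values. Replication genes (blue) lie above 0 on both axes, most immediate early genes (orange) below 0 on both, and most classic GR-induced genes (red) below the dashed line.

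Genes known to be induced by glucocorticoids already differed without hormone, in both directions and by less than with Dex. Of 33 tested classic GR-induced genes 12 were lower in Y551A-Dim, 7 higher and 14 not called in EtOH, with a median of -0.17, and the 7 became 4 when Y551A replicate 1, Y551A replicate 2 or Y551A-Dim replicate 2 was left out. Tsc22d3, the anti-inflammatory factor GILZ (chrX:140539528-140600659), stood at 37.2, 38.1 and 36.8 CPM in Y551A and 27.5, 30.3 and 28.6 CPM in Y551A-Dim without hormone (log2 -0.38 ± 0.05 (SE), edgeR adjusted p = 3.29e-06). Sgk1, a kinase of ion transport (chr10:21882184-21999903), gave 177, 179 and 180.1 CPM against 125, 137 and 125 CPM (log2 -0.47 ± 0.04 (SE), edgeR adjusted p = 3.26e-10). Dusp1, the phosphatase that limits MAP kinases, gave 15.1, 15.4 and 16.7 CPM against 8.44, 8.19 and 8.69 CPM, with WT at 8.93, 8.47 and 8.44 CPM (log2 -0.90 ± 0.07 (SE), edgeR adjusted p = 2.67e-10). These genes were lower in every library of Y551A-Dim. Zfp36, which destabilizes cytokine transcripts, had log2 -0.76 ± 0.10 (SE), edgeR adjusted p = 8.11e-07, Tgm2, a transglutaminase, log2 -0.32 ± 0.04 (SE), edgeR adjusted p = 3.5e-07, and Klf9, a Krüppel-like factor, log2 -0.23 ± 0.05 (SE), edgeR adjusted p = 0.000569.

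Other GR targets were higher or were not called. Fkbp5, a co-chaperone that feeds back on GR (chr17:28399094-28517527), stood at 59.4, 62.2 and 63.2 CPM against 75.1, 82.3 and 74.8 CPM (log2 0.33 ± 0.05 (SE), edgeR adjusted p = 4.91e-06). Mt1, a metallothionein, gave 16.7, 16.4 and 17.3 CPM against 22.9, 23.6 and 24 CPM (log2 0.49 ± 0.13 (SE), edgeR adjusted p = 0.00674), and Glul, glutamine synthetase, log2 0.15 ± 0.05 (SE), edgeR adjusted p = 0.0291, a call lost without Y551A replicate 1 or 2 or Y551A-Dim replicate 2. Per1, a clock gene and an early GR target (chr11:69095217-69109960), overlapped, at 3.44, 4.84 and 5 CPM against 4.01, 3.48 and 3.69 CPM (log2 -0.25 ± 0.15 (SE), edgeR adjusted p = 0.232). Gata3, a luminal factor, was not called (log2 -0.13 ± 0.10 (SE), edgeR adjusted p = 0.368), nor was Lcn2, an acute-phase protein, at 0.195, 0 and 0.0384 CPM and 0.0342, 0 and 0.0367 CPM. Of 27 GR chaperones and coregulators 6 were higher and 2 lower.

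With Dex the direction of this list was more uniform, 23 lower and 4 higher of 33 with a median of -0.67. In EtOH itself 4 of these genes were at least 1.5-fold lower, Dusp1, Zfp36 and Cdkn1a among them, and 1 higher (Fabp4). The test of the difference between the treatments called 90 of 16140 genes (0.558%), 74 more negative with Dex (0.458%) and 16 more positive (0.0991%), and 18 of the 33 classic genes were among the 74. Of those 18, 10 were lower already in EtOH, 5 were not called there and 3 were higher. Without replicate 3 of Y551A-Dim with Dex the 90 became 222, with 77 more positive. Per1 had 38, 28.3 and 28.2 CPM with Dex in Y551A and 7.92, 9.7 and 8.44 CPM in Y551A-Dim, a log2 difference of -1.86 ± 0.12 (SE) where EtOH gave -0.25, and the change between treatments was -1.61 ± 0.19 (SE, edgeR adjusted p = 3.54e-06). Tsc22d3 moved from -0.38 to -1.65, Sgk1 from -0.47 to -1.72, and Ccn2, which also belongs to the YAP list, from -0.38 to -2.25, all past the threshold in that test. Fkbp5 went from higher to lower, 0.33 to -0.42, as did Glul, 0.15 to -0.46, and Fabp4, a fatty acid carrier at 0.274, 0.409 and 0.269 CPM and 0.786, 0.58 and 0.881 CPM in EtOH, 1.22 to -1.65. Cdkn1a had -0.64 and -0.64, with no call for a difference, and neither had Zfp36 one (edgeR adjusted p = 0.152).

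**Figure D5:**
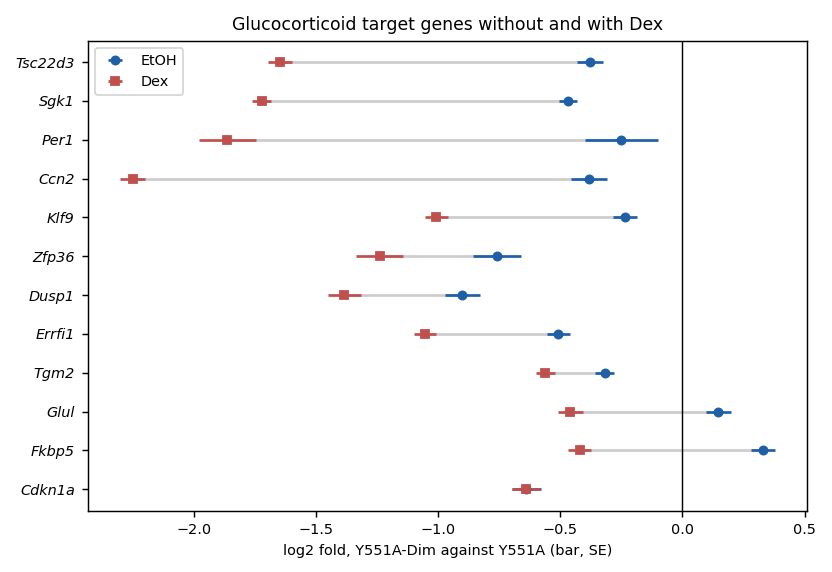
Log2 fold change of Y551A-Dim against Y551A for 12 glucocorticoid target genes with EtOH (blue circles) and with Dex (red squares), bars giving the SE. All but Fkbp5, Glul and Cdkn1a lie below 0 in EtOH and farther below with Dex, Fkbp5 and Glul cross 0, and both marks of Cdkn1a coincide at -0.64.

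Genes that respond to Dex in the WT line, called from WT libraries that are not part of the line contrast, were also examined in the line contrast. Of 323 genes raised by Dex in WT, 109 were lower in Y551A-Dim without hormone and 42 higher, with a median of -0.08, and with Dex 210 were lower and 18 higher. Of 226 genes lowered by Dex in WT, 94 were lower in Y551A-Dim in EtOH and 43 higher (median -0.10). Over all 16140 genes tested, 14.2% were lower and 14.8% higher in EtOH (median 0.01), and 12.7% lower and 12.8% higher with Dex. In both sets more genes were lower than higher in Y551A-Dim before hormone, whichever way Dex moved them in WT.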

How the data were processed

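Total RNA libraries, depleted of ribosomal RNA and sequenced as stranded 100 bp read pairs, were compared between the EtOH libraries of the 2 lines, 3 against 3. The deposited values are raw read counts per gene name, made by the authors with featureCounts 2.0.3 on GENCODE vM21 exons, reversely stranded, with both mates counted and reads that map to several places left out, per the file headers. The submitters' processing notes name bcl2fastq 2.17, cutadapt, STAR and the mm10 build. The Drosophila spike-in was not used here. Genes were filtered with filterByExpr, scaled by TMM and tested with edgeR 4.0.16 (quasi-likelihood, Benjamini-Hochberg adjustment) in R 4.3.3, in 1 fit with a mean per group over the 18 libraries of the WT, Y551A and Y551A-Dim lines with EtOH and Dex that share a set. Depth was 51188943 to 58611115 counts in the 6 libraries. The fit recovered, in a test on simulated data, seeded changes of 1.5-fold and above before use. Only genes with ample expected counts were seeded and all genes had the same spread, so that test does not cover scarce genes. Same-numbered libraries did not deviate together (correlations 0.06, -0.02 and -0.18 in EtOH), so numbers were not taken as pairs, and no 2 libraries agreed within counting noise.

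The text names the 14 highest and 14 lowest log2 fold changes among called genes without overlap and with a mean log2 CPM of 1 or more, 6 genes each way with at most 30 counts summed in 1 line, the 4 members of each list with the lowest adjusted p, listed GR targets, genes called in both tests, and genes of the extreme runs of 20 neighbours. A further 27 genes were named after their values were seen. Some genes that the rule names are not reported here. Members and lists were chosen with earlier results of these data known. Alternatives were DESeq2 1.42.0, other size factors, no filter, a fit on the compared groups alone, a replicate block and leaving out each library. Coordinates are mm10 with GENCODE vM21, and promoters come from RefSeq on GRCm38.p6, which gave a window for 10329 of the 16140 genes tested.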

Additional observations from a re-analysis of the deposited data

Results flagged for a closer look

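The line difference itself differed between Dex and EtOH, in an edgeR test of the interaction, for 90 genes. Most of the named ones were glucocorticoid targets whose difference was more negative with Dex: S100a7a (-2.95 on the log2 scale), Fabp4 (-2.87), Ccn2 (-1.87), Per1 (-1.61), Tsc22d3 (-1.27), Sgk1 (-1.25), Klf9 (-0.77), Fkbp5 (-0.75), Glul (-0.61), Errfi1 (-0.55), Itga5 (-0.50), Dusp1 (-0.48) and Tgm2 (-0.24). The difference was more positive with Dex for Ccl2 (1.01), Il33 (0.61), Ier3 (0.58), Ankrd1 (0.49), Ereg (0.46) and Phlda1 (0.46). The calls of Il33, Phlda1 and Tgm2 were lost under at least 1 alternative.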

How the results depend on the processing

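Leaving out each of the 6 EtOH libraries gave 3976 to 4252 called genes (1905 to 2164 higher, 1886 to 2347 lower) and 480 to 525 at least 1.5-fold apart (205 to 244 higher, 268 to 305 lower). The other alternatives gave 4439 to 5132 and 538 to 577. Fitting the replicate number as a replicate block gave 4599 genes in EtOH, 538 at least 1.5-fold, 4006 with Dex and 93 for the difference between treatments. With Dex, leaving out a library gave 3464 to 4358 genes (1501 to 2193 higher, 1704 to 2165 lower), and the fit on the compared groups alone 1180 higher. The difference between treatments was the least stable, from 69 to 222 genes without 1 library (8 to 77 more positive, 61 to 145 more negative), 250 with no low-count filter (112 and 138), 8 more positive with the compared groups alone and 29 with DESeq2, and the cause was not tested. Signs turned only for genes that were not called: without Y551A replicate 1 Lcn2 became 0.3548 (range without 1 library -2.185 to 0.3548) and Gm48014 0.04178 (-0.8375 to 0.04178), and Ugt1a6a became -0.08217 without Y551A replicate 2 and -0.03441 without replicate 3 (-0.08217 to 0.3589). Of 217 genes covered by the naming rule or added to it 21 lost their EtOH call under some alternative. Counts of a few reads, as for Trp63 and Lcn2, limit what can be seen.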

Other observations

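Several gene groups not described above differed little between the lines. Of 35 ribosomal protein genes 7 were lower and none higher, with a median of -0.05, and leaving out 1 library gave 3 to 7. Among 14 mitochondrially encoded genes 2 were higher, among 23 NRF2 targets 2 were higher and 5 lower, and among 16 clock genes 4 went each way. Hox genes, which mark position along the body axis, had 2 lower of 23, and interferon genes 2 higher and 5 lower of 23.

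Gm23935, a predicted miRNA gene on chromosome 16, had the highest fitted log2 fold change (8.51), but its Y551A-Dim level of 7.55 ± 13.1 CPM (SD, n = 3) came from 1 library and the groups overlapped. The WT libraries held 7.88 ± 7.01 CPM (SD, n = 3). It was not taken as a difference between the lines.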
